A study of Homo sapiens with 6 samples.

Results

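IGF-binding proteins (IGFBPs) and the receptors of insulin-like growth factors (IGFs) were followed in 12Z cells, an epithelial line derived from human endometriosis tissue. The 10 genes were IGFBP1 to IGFBP7, IGF1R, IGF2R and INSR. They were listed by their symbols, with earlier results of these data known, and all 10 were present among the 16279 genes of the deposited tables. Control cells received no treatment (n = 3) and the other cells received 10 ng/mL rhChem157S, the recombinant active form of the adipokine chemerin, for 48 h (n = 3). All 6 libraries were labelled as biological replicates of 1 cell line, so that the p-values measure the spread between cultures of this line and not between women. The comparison asks which transcripts of the IGF system differ between chemerin-treated and Control 12Z cells. Genes were tested on the read counts with edgeR's quasi-likelihood test and Benjamini-Hochberg adjustment over the 13311 genes that passed a filter on low counts. Levels are given as FPKM, fragments per kilobase of gene length and of the library total, so that they can be compared between genes.

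The IGF system works outside the cell first. IGF1 and IGF2 bind IGF1R, a receptor tyrosine kinase related to the insulin receptor INSR, while IGF2R, the cation-independent mannose 6-phosphate receptor, takes up IGF2 for degradation and carries lysosomal enzymes. IGFBP1 to IGFBP6 bind IGFs with high affinity and control how much ligand reaches the receptors, proteases cut them to release the ligand, and IGFBP7 is a more distant relative with low affinity for IGFs. In the endometrium IGFBP1 is a product of decidual stromal cells.

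Among the 10 genes, IGFBP3 stood apart. Each of its treated libraries lay above all Control libraries, with a fold change of 2.12 on the normalized counts, and it was the only gene of the 10 to do so. Such a separation was common, with 16.5% of all tested genes higher in this way and 32.5% separate in either direction. The adjusted p of IGFBP3 was 0.0692 with edgeR, above the threshold of 0.05, and 6.88e-08 with another test, DESeq2. IGFBP6 had a fold change nearly as large, but its groups overlapped and it did not pass any test on all 6 libraries. IGFBP2, IGFBP4, IGFBP5, IGFBP7, IGF1R, IGF2R and INSR also overlapped between the groups, and IGFBP1 was at 0 or 1 count throughout. IGFBP4, the most abundant of the 10 by group mean, made up a smaller share of the IGFBP transcripts in every treated library.

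The promoters of 3 members are shown so that the start regions of the genes at the centre of the results can be read: IGFBP3, which differed most between the groups, IGFBP4, the most abundant member by group mean, and IGF2R, the most abundant receptor. Each run holds the 120 bases before the RefSeq start site on the gene's own strand, 5′ to 3′, in assembly GRCh38.p14, and capitals mark matches to TATAAA, to the letters TATATA and, on either strand, to GGGCGG. IGFBP3 lies at chr7:45921273-45921392 on the minus strand, IGFBP4 at chr17:40443330-40443449 on the plus strand and IGF2R at chr6:159968962-159969081 on the plus strand.
IGFBP3: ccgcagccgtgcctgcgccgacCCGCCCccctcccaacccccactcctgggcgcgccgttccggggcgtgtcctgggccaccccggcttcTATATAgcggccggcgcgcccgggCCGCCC
IGFBP4: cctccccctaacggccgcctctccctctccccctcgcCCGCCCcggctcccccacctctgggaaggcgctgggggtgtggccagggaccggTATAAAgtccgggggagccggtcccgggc
IGF2R: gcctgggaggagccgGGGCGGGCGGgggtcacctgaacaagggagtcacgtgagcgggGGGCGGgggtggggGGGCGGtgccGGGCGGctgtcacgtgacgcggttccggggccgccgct

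TATATA began 30 bases before the start of IGFBP3 and TATAAA 29 bases before the start of IGFBP4, letters of the kind known as a TATA box. In IGF2R neither was found, and GGGCGG, the core of a GC box, occurred 5 times with 2 of the matches overlapping. All 4 motifs were searched on both strands, with overlaps allowed, in the same window of 35116 RefSeq promoters. TATAAA was in 5.63% of them, TATATA in 1.86%, GGGCGG in 34.0% and CCAAT in 20.4%. RefSeq start sites were matched for 8 of the 10 genes. Of their 10 promoters, the unit of these shares, 7 held GGGCGG, 1 TATATA, 1 TATAAA and 0 CCAAT. Counted by gene, 6 of the 8 held GGGCGG. The GC content was 80.0% before IGFBP3, 75.8% before IGFBP4 and 79.2% before IGF2R, against a median of 60.0%. A match is a description of the letters and says nothing about which factor binds there.

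In the gene map of GENCODE release 29 (GRCh38), 4 of the IGFBP genes lie in tail-to-tail pairs. IGFBP3, on chromosome 7 from 45912245 to 45921874 on the minus strand, faces IGFBP1, from 45888357 to 45893668 on the plus strand, with 18576 bases and 0 other coding genes between them. Although they are neighbours, IGFBP3 was among the abundant members and IGFBP1 was nearly silent. IGFBP2 and IGFBP5 form the other pair on chromosome 2, from 216632828 to 216664436 on the plus strand and from 216672105 to 216695525 on the minus strand, 7668 bases apart. IGFBP4 lies on chromosome 17 from 40443461 to 40457731, IGFBP6 on chromosome 12 from 53097436 to 53102345 and IGFBP7 on chromosome 4 from 57030773 to 57110385. IGF1R lies on chromosome 15 from 98648539 to 98964530, IGF2R on chromosome 6 from 159969099 to 160113507 and INSR on chromosome 19 from 7112255 to 7294034.

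Libraries held between 35430881 and 38341643 counted reads. The groups did not overlap in 32.5% of the tested genes on normalized log2 counts, 16.5% higher and 16.0% lower with rhChem157S. On FPKM, which carries no TMM factor, the split was 980 genes higher and 3346 lower. edgeR called 4 genes at an adjusted p under 0.05, or 0.0301% of those tested, while 22.8% had an unadjusted p under 0.05. DESeq2 called 10.6% in either direction, 609 genes (4.58%) higher and 798 lower. The median log2 fold change of all tested genes was 0.01 with the TMM factors and -0.12 when scaled by library size only, and directions of members with smaller values depend on this scaling. KRT8, KRT18 and KRT19, keratins of simple epithelia, were abundant in all libraries, whereas CDH1 (E-cadherin) was at 0.0859 to 0.381 FPKM and EPCAM at 0.125 to 0.807, and the fibroblast collagen COL1A1 was at 728 to 1165 FPKM. KRT7, another keratin of the epithelial list, was at 1.19 to 2.01 FPKM. The defining markers of the labelled epithelial type were thus abundant in part and low in part. The decidual markers were mixed as well. PRL had 0 or 1 count per library, whereas HAND2 was at 10.4 to 20.5 FPKM and FOXO1 at 0.634 to 1.72 FPKM.

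Of the 10 members, 9 passed the filter on low counts, and the least abundant of these, INSR, had 327 to 597 counts in every library. With edgeR 0 of the 9 had an adjusted p under 0.05 and 1, IGFBP3, had an unadjusted p under 0.05. With DESeq2 1 of 9 was called, and in 1 of 9 the groups did not overlap. The first share is close to the 10.6% of all tested genes that DESeq2 called, and the second is below the 32.5% whose groups did not overlap.

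IGFBP3 encodes the main carrier of IGFs in blood and also has actions at the cell surface that do not need IGF. Its FPKM was 85.2, 80.3 and 58.4 in Control libraries 1 to 3 and 138, 149 and 147 in rhChem157S libraries 1 to 3. The treated libraries lay close together and far above the highest Control library, while Control library 3 was the low one. Control cells averaged 74.6 ± 14.3 FPKM and treated cells 145 ± 6.0 FPKM (SD, n = 3 each), resting on 5534 to 14504 reads in a library. This gave a log2 fold change of 1.09 (95% interval 0.73 to 1.45, standard error 0.15, adjusted p = 0.0692 from edgeR). With DESeq2 the log2 fold change was 1.08 and the adjusted p 6.88e-08, so that the call depended on the test. The log2 fold change lay between 0.94 and 1.20 with any 1 library left out. In RNA from whole cultures, a difference in how many cells express a gene and a difference in its RNA per cell cannot be told apart.

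Markers of mesenchymal cells did not move as 1 group. Over all tested genes, DESeq2 called 4.58% higher and 10.6% in either direction. Of 9 tested stromal and fibroblast markers, 2 (VIM and PDGFRA) were called higher by DESeq2, and the median log2 fold change of the list was 0.01. The summed FPKM of the list was 2694 to 3079 in Control cells and 3819 to 4417 with rhChem157S, but 1703 to 2198 and 1170 to 2312 without VIM, so that the higher sum came from VIM. PDGFRB had a log2 fold change of -0.60 and COL1A2 of -0.47, with overlapping groups in both. Of 7 tested epithelial markers, DESeq2 called 0 higher and 1 (MUC1) lower, with a summed FPKM of 1596 to 1866 and 1760 to 1976. With edgeR 5 of the 7 had an unadjusted p under 0.05, against 22.8% of all tested genes, and 0 had an adjusted p under 0.05. Of these, KRT8 and KRT19 were higher with rhChem157S, at log2 fold changes of 0.29 and 0.27. CDH1, EPCAM and MUC1 were lower, at -1.14, -1.46 and -0.57, with CDH1 and EPCAM at low counts. Endothelial markers were near 0, with a summed FPKM of 0.448 to 0.691 in Control cells and 0.145 to 0.289 with rhChem157S, and DESeq2 called VWF lower (adjusted p = 0.00608). Of 2 tested immune markers, CD14 was called lower by DESeq2 and CD68 was at 70.0 to 134 FPKM with overlapping groups, and PTPRC, the common leukocyte marker, had 4 to 12 counts. Their part in the result for IGFBP3 was not tested.

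**Figure D1:**
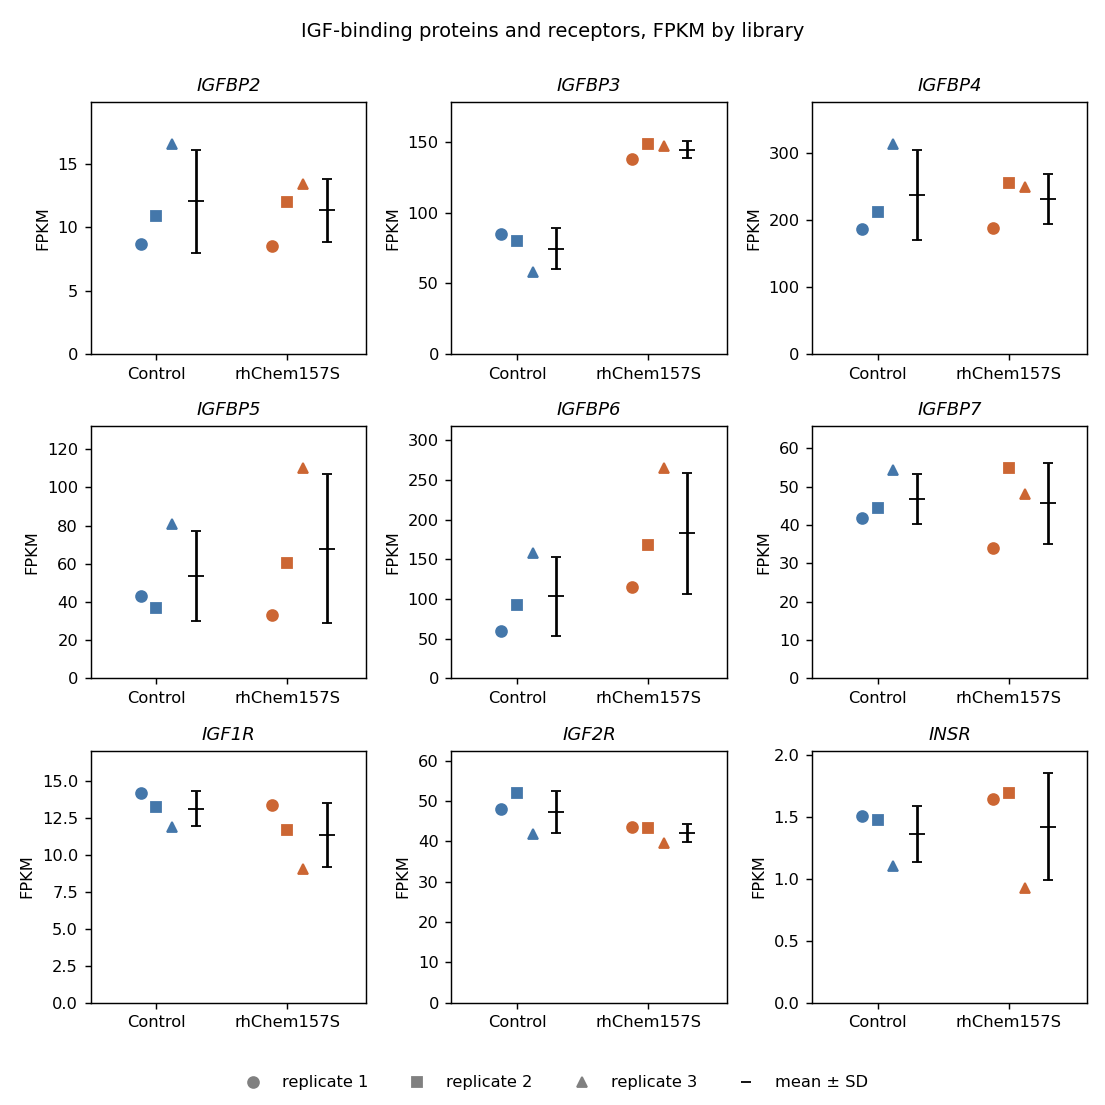
FPKM of the 9 tested genes in each library, with Control in blue and rhChem157S in orange, marker shapes for the replicate number and black bars for mean ± SD (n = 3 per group). IGFBP3 is the panel in which the groups separate, at 58.4 to 85.2 against 138 to 149 FPKM, while IGFBP6 runs from 60.0 to 157 and from 115 to 265.

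IGFBP6 encodes a binding protein with a preference for IGF2. Its FPKM was 60.0, 92.7 and 157 in Control libraries 1 to 3 and 115, 168 and 265 in rhChem157S libraries 1 to 3. Control library 3 lay above rhChem157S library 1, so the groups overlapped, although the mean of 183 ± 75.8 (SD, n = 3) with treatment was above the 103 ± 49.6 (SD, n = 3) of Control cells. The log2 fold change was 0.98, close to that of IGFBP3, but the 95% interval ran from -0.01 to 1.96 (standard error 0.42, adjusted p = 0.224 from edgeR and 0.270 from DESeq2). Without Control library 3 it was 1.41 and the groups separated, with an adjusted p of 0.0133 from DESeq2 and 0.281 from edgeR. Separation is easier with fewer libraries, and its share over all tested genes was not computed there. Without rhChem157S library 3 the log2 fold change was 0.54. The size of the IGFBP6 difference therefore rested on which library was counted, whereas that of IGFBP3 did not.

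IGFBP5, a binding protein that attaches to extracellular matrix, had the largest standard error of the tested members, 0.48 on the log2 scale. Its FPKM was 43.2, 36.9 and 80.8 in Control libraries and 33.0, 60.4 and 110 in rhChem157S libraries. Both the lowest and the highest value were from treated cells, and in each group the library numbered 3 was the highest. The log2 fold change was 0.50 with a 95% interval from -0.63 to 1.63 (adjusted p = 0.550, edgeR), and it turned to -0.11 without rhChem157S library 3 and was 0.92 without Control library 3. Of its 6442 exon bases, 298 are shared with an antisense gene.

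IGFBP4, which inhibits IGF action and is cut by the protease PAPPA, was the most abundant member by group mean, though rhChem157S library 3 held more IGFBP6. Its FPKM was 186, 212 and 314 in Control libraries and 188, 255 and 250 in rhChem157S libraries. All 3 treated values lay inside the Control range. The log2 fold change was 0.10 (95% interval -0.43 to 0.62, adjusted p = 0.811, edgeR), or -0.04 with library size only, and changes above 0.62 or below -0.43 lay outside the interval.

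IGFBP2, a binding protein common in development and in tumours, was at 8.72, 10.9 and 16.6 FPKM in Control libraries and at 8.57, 12.0 and 13.5 in rhChem157S libraries. The ranges nearly coincided, with a log2 fold change of 0.05 (95% interval -0.60 to 0.71, adjusted p = 0.925, edgeR), or -0.09 with library size only. IGFBP7 was at 41.9, 44.5 and 54.3 FPKM in Control libraries and at 34.0, 54.8 and 48.04 in rhChem157S libraries. Its lowest and highest values were both from treated cells, and the log2 fold change was 0.10 (95% interval -0.37 to 0.56, adjusted p = 0.787, edgeR), or -0.04 with library size only. IGFBP7 shares 270 of its 1930 exon bases with POLR2B on the opposite strand, a gene with 3461 to 4109 counts per library. The strand setting of the counting was not given in the sources used here.

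IGFBP1, the decidual member, had 1, 0 and 0 counts in Control libraries and 1, 1 and 0 in rhChem157S libraries. It was at the edge of detection at this depth in 12Z cells. A count of 0 allows up to 3 counts. This is 0.0816 CPM in Control library 2, 0.0832 CPM in Control library 3 and 0.0802 CPM in rhChem157S library 3, and it covers counting error only.

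The receptors differed little between the groups. IGF1R was at 14.2, 13.3 and 11.9 FPKM in Control libraries and at 13.3, 11.7 and 9.06 in rhChem157S libraries, with a log2 fold change of -0.09 (95% interval -0.38 to 0.20, adjusted p = 0.693, edgeR). IGF2R was at 48.01, 52.1 and 41.8 FPKM in Control libraries and at 43.5, 43.3 and 39.5 in rhChem157S libraries, with a log2 fold change of -0.04 (95% interval -0.28 to 0.20, adjusted p = 0.839, edgeR). Both had narrow intervals beside those of the IGFBPs. INSR was at 1.505, 1.47 and 1.10 FPKM in Control libraries and at 1.64, 1.70 and 0.923 in rhChem157S libraries, with a log2 fold change of 0.18 (95% interval -0.36 to 0.72, adjusted p = 0.659, edgeR). In all 3 receptors the library numbered 3 was the lowest of its group on FPKM. IGF1R was 9.74 ± 0.922 times INSR in Control cells and 8.27 ± 1.48 times with rhChem157S (FPKM ratio, SD, n = 3), and IGF2R was 3.61 ± 0.287 and 3.78 ± 0.555 times IGF1R, with overlapping groups in both ratios.

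**Figure D2:**
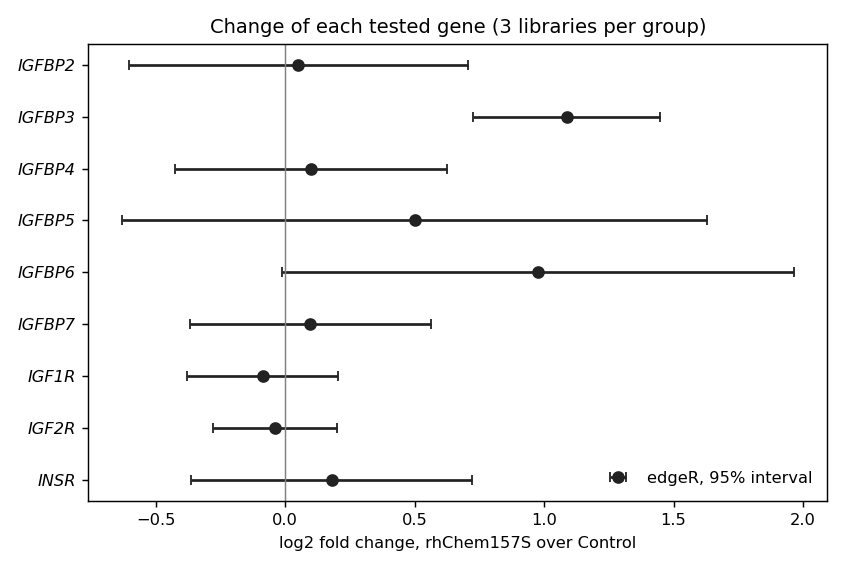
Log2 fold change of rhChem157S over Control for the 9 tested genes (points) with the 95% interval from edgeR (bars, 3 libraries per group), and a grey line at 0. The interval of IGFBP3 runs from 0.73 to 1.45, that of IGFBP6 starts at -0.01, and the intervals of IGF1R and IGF2R are the narrowest.

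The single libraries ordered the members in opposite ways. Control library 3 had the highest value of its group in 5 of the 9 tested members, IGFBP2, IGFBP4, IGFBP5, IGFBP6 and IGFBP7, and the lowest in the other 4, IGFBP3 and the 3 receptors. Among the treated libraries, rhChem157S library 1 was the lowest in all 6 tested IGFBPs and library 3 the lowest in all 3 receptors. This order is that of FPKM. On normalized counts IGF2R was lowest in rhChem157S library 1 instead. IGFBP3 thus parted from the other IGFBPs in the Control group as well, where it went down in the library in which the other 5 were highest.

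By mean FPKM the order in Control cells was IGFBP4, IGFBP6, IGFBP3, IGFBP5, IGF2R, IGFBP7, IGF1R, IGFBP2, INSR and IGFBP1. The ranges of neighbours were separate between IGFBP4 and IGFBP6, between IGFBP7 and IGF1R, between IGFBP2 and INSR and between INSR and IGFBP1, and the other neighbours did not differ beyond their spread. With rhChem157S the order was the same except that IGFBP7 stood before IGF2R. There the first gap between neighbours came between IGFBP3 and IGFBP5, at means of 145 and 67.8 FPKM, and IGFBP4, IGFBP6 and IGFBP3 overlapped in sequence.

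The make-up of the IGFBP transcripts, each member's share of the summed IGFBP FPKM of a library, does not depend on the scaling between libraries. IGFBP4 made up 43.8%, 44.4% and 46.1% in Control libraries and 36.4%, 36.5% and 30.0% in rhChem157S libraries, with means of 44.8% ± 1.17 and 34.3% ± 3.75 (SD, n = 3). The shares were nearly constant among Control cells and lower in every treated library. IGFBP3 made up 15.1% ± 5.92 and 21.9% ± 4.52, and IGFBP6 18.9% ± 4.52 and 26.0% ± 5.04 (SD, n = 3), and the groups overlapped in both. IGFBP7 went from 9.05% ± 0.975 to 6.73% ± 1.04 and IGFBP2 from 2.26% ± 0.196 to 1.66% ± 0.0533 without overlap, and IGFBP5 was at 9.92% ± 2.08 and 9.41% ± 3.48 (SD, n = 3). Shares of a sum are bound to each other, so these values describe 1 shift and were not tested. The FPKM of IGFBP3 was 0.186 to 0.458 times that of IGFBP4 in Control libraries and 0.583 to 0.733 times in treated ones. All IGFBPs together took 0.104% to 0.162% of the counts in Control libraries and 0.116% to 0.198% in rhChem157S libraries.

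**Figure D3:**
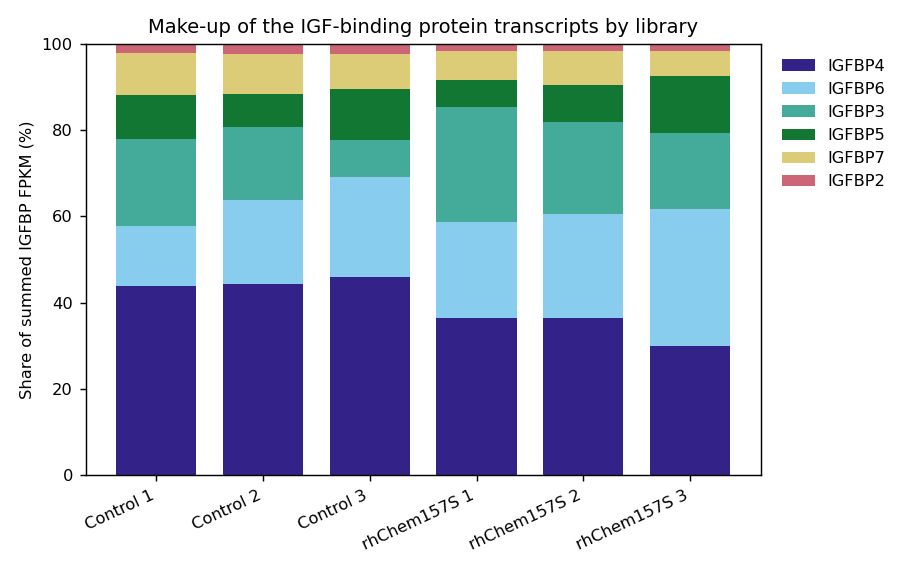
Share of each IGFBP in the summed IGFBP FPKM (%, stacked to 100) for the 6 libraries, without IGFBP1, which is too low to see. The IGFBP4 block at the bottom is 43.8% to 46.1% high in Control and 30.0% to 36.5% in rhChem157S libraries.

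Of the ligands, IGF2 was nearly absent. It had 0, 8 and 4 counts in Control libraries and 7, 4 and 2 with rhChem157S, and IGFALS, which joins IGF and IGFBP3 or IGFBP5 in a ternary complex in blood, had 14, 11 and 2 and then 4, 3 and 0. Neither passed the filter, and IGF1 and INS were not analysed here.

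Proteases that cut IGFBPs set free the ligand they hold. Of 6 tested genes in the list of proteases and their inhibitors, edgeR called 0, with 2 at an unadjusted p under 0.05, and DESeq2 called 1 higher and 1 lower, against shares of 22.8% and 10.6% over all tested genes. The median log2 fold change was 0.36, against 0.01 over all tested genes. PAPPA, which cuts IGFBP4 and IGFBP5, was at 7.96, 10.3 and 10.02 FPKM in Control libraries and at 4.14, 5.98 and 5.82 in rhChem157S libraries. Every treated value lay below every Control value, with a log2 fold change of -0.69 (95% interval -1.12 to -0.26, adjusted p = 0.116 from edgeR and 0.0111 from DESeq2). The call by DESeq2 was lost without Control library 2 (adjusted p = 0.172) or Control library 3 (adjusted p = 0.116). ADAM12, a metalloprotease that cuts IGFBP3 and IGFBP5, was at 13.6, 12.8 and 10.9 FPKM in Control libraries and at 18.7, 17.2 and 23.8 with rhChem157S. Here every treated value lay above every Control value, with a log2 fold change of 0.82 (95% interval 0.42 to 1.22, adjusted p = 0.0824 from edgeR and 6.45e-04 from DESeq2).

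The other genes of this list overlapped between the groups. HTRA1, a secreted serine protease, had a log2 fold change of 0.23 (adjusted p = 0.502, edgeR). STC1 and STC2 encode stanniocalcins, which inhibit PAPPA. STC2 was at 16.7, 21.6 and 31.7 FPKM in Control libraries and at 16.5, 23.4 and 56.2 with rhChem157S, and its log2 fold change of 0.62 (adjusted p = 0.454, edgeR) was -0.14 without rhChem157S library 3. STC1 had a log2 fold change of 0.07 (adjusted p = 0.932, edgeR), or -0.63 without that library and -0.033 without Control library 1. The sign of both stanniocalcins thus turned when the highest treated library was left out. ADAM28 had 2 to 13 counts per library, and PAPPA2 had 1 count in rhChem157S library 1 and 0 elsewhere.

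**Figure D4:**
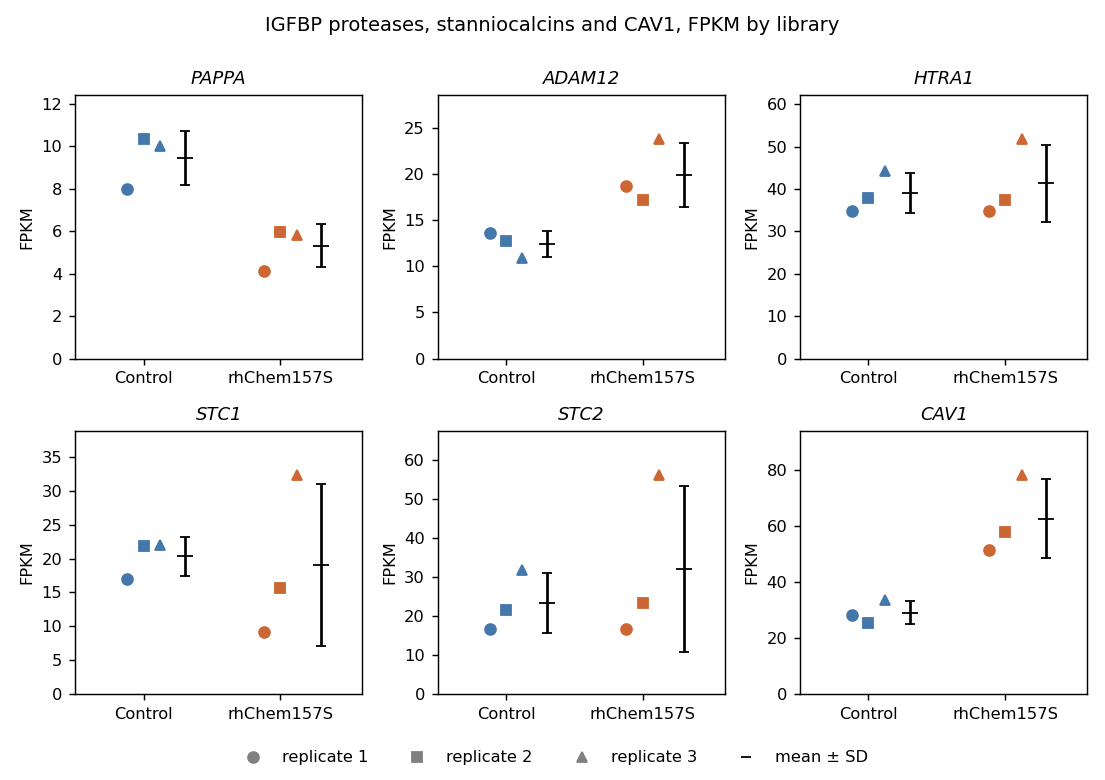
FPKM of PAPPA, ADAM12, HTRA1, STC1, STC2 and CAV1 in each library, with Control in blue, rhChem157S in orange, marker shapes for the replicate number and black bars for mean ± SD (n = 3 per group). PAPPA is lower and ADAM12 and CAV1 are higher in all treated libraries, and replicate 3 stands far above the other treated libraries in STC1 and STC2.

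IGFBPs also meet partners at the cell surface. Of 5 tested genes in this list, DESeq2 called 2 higher and 0 lower, and edgeR called 0, with 2 at an unadjusted p under 0.05 and a median log2 fold change of 0.45. Over all tested genes, DESeq2 called 4.58% higher, and 22.8% had an unadjusted p under 0.05 with edgeR. CAV1, encoding caveolin-1, was at 28.3, 25.3 and 33.5 FPKM in Control libraries and at 51.5, 58.0 and 78.3 with rhChem157S (log2 fold change 1.25, adjusted p = 0.0707 from edgeR and 2.63e-06 from DESeq2). ITGB1, the integrin beta subunit of many matrix receptors, had a log2 fold change of 0.55 (adjusted p = 0.0868 from edgeR and 3.35e-04 from DESeq2). Both lay higher in all treated libraries, as did IGFBP3 and 16.5% of all tested genes.

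Downstream of the receptors no gene was called by edgeR or by DESeq2, against 0.0301% and 10.6% of all tested genes. In the list of receptor processing and adaptors, 13 of 16 genes were tested, and the median log2 fold change was 0.15. With edgeR 2 had an unadjusted p under 0.05, against 22.8% of all tested genes. The groups separated in 5 of the 13, beside the 32.5% of all tested genes. FURIN, the protease that matures both receptors, GRB2, an adaptor, and PTPN1, a phosphatase of the receptors, lay higher in every treated library on normalized counts, with log2 fold changes of 0.21, 0.18 and 0.21, and GRB14 and SH2B2 lay lower, at -0.98 and -0.31. SHC1, the most abundant adaptor, had 0.15 and overlapped. On FPKM the groups overlapped for FURIN, GRB2 and PTPN1. There the list had 0 genes higher and 4 lower in all treated libraries, against 3 and 2 on normalized counts.

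In the list of the PI3K, AKT and TOR arm, 22 genes were tested, 3 had an unadjusted p under 0.05 with edgeR, and the median log2 fold change was 0.08. The 3 genes are a smaller share than the 22.8% of all tested genes, and the groups separated in 5 of the 22, a smaller share than the 32.5% of all tested genes. PIK3CA, the catalytic PI3K subunit, RPTOR, a part of TOR complex 1, and GSK3A, a kinase that AKT inhibits, lay higher in every treated library, at 0.29, 0.28 and 0.34, with overlap on FPKM for PIK3CA and RPTOR. INPPL1, an inositol phosphatase, lay lower at -0.22, and FOXO1, a transcription factor that AKT keeps out of the nucleus, at -0.51. On FPKM the list had 1 gene higher and 5 lower in all treated libraries, against 3 and 2 on normalized counts. AKT1 was at 66.4 to 71.5 FPKM in Control and 64.8 to 67.3 in treated cells and overlapped. The adjusted p of these genes from edgeR lay between 0.181 and 0.565.

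The groups separated on normalized counts in 0 of 3, 2 of 4 and 2 of 6 tested genes of the remaining lists, against the 32.5% of all tested genes. Among the IGF2 mRNA-binding proteins, 3 were tested and 0 were called by edgeR or DESeq2 or had an unadjusted p under 0.05, with IGF2BP2, the most abundant, at a log2 fold change of 0.18 (adjusted p = 0.275, edgeR). Of 4 genes for mannose 6-phosphate tagging and sorting, the pathway that IGF2R serves, 0 were called by edgeR or DESeq2. M6PR and NAGPA lay higher in all treated libraries on normalized counts, at 0.20 and 0.17, but overlapped on FPKM. On FPKM this list had 0 genes higher and 1 lower in all treated libraries. Among 6 tested relatives with an IGFBP-type domain, DESeq2 called 0 higher and 1 lower, and edgeR called 0, with 2 at an unadjusted p under 0.05. Over all tested genes DESeq2 called 10.6%, and 22.8% had an unadjusted p under 0.05 with edgeR. The one called was KAZALD1, at 0.940, 1.32 and 1.21 FPKM in Control libraries and at 0.745, 0.331 and 0.253 with rhChem157S (log2 fold change -1.27, adjusted p = 0.135 from edgeR and 0.0247 from DESeq2). This call was lost without any 1 of the Control libraries or rhChem157S library 2, at adjusted p from DESeq2 of 0.0704 to 0.237. CCN3 lay higher in every treated library, at 0.79 (adjusted p = 0.178, edgeR). CCN1, the most abundant relative, overlapped on normalized counts at -0.30 (adjusted p = 0.264, edgeR). On FPKM it was lower in every treated library, at 275 to 329 against 369 to 479 in Control libraries.

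The genes most like IGFBP3 across the 6 libraries were found by the root mean square difference of centred log2 CPM (counts scaled by library), among tested genes with a mean of at least 10 FPKM. They were DPYSL3, at a difference of 0.111, CAVIN3 at 0.174, CD109 at 0.206, LGALS1 at 0.208 and ADAM12 at 0.218. DPYSL3 was at 47.6, 39.4 and 35.5 FPKM in Control libraries and at 68.5, 77.8 and 84.4 with rhChem157S. CAVIN3, a caveola coat protein, was called by edgeR, with a log2 fold change of 1.18 (adjusted p = 0.0460, or 0.147 to 0.359 without any 1 of the Control libraries or rhChem157S library 2). LGALS1, encoding galectin-1, had 0.82 (adjusted p = 0.0586 from edgeR and 6.26e-11 from DESeq2) and CD109, a surface co-receptor of TGF-beta, 0.76 (adjusted p = 0.0707 from edgeR and 2.52e-05 from DESeq2). These genes were picked for the likeness, so that their own separation is no further evidence for IGFBP3.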

How the data were processed

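Total RNA of 12Z cells (3 Control and 3 rhChem157S libraries) was sequenced by the authors, trimmed with fastp, aligned with HISAT2 to GRCh38.p13 per the labels, and counted per gene with HTSeq. The authors deposited raw counts without normalization and, for the same 16279 genes, FPKM. In 89195 of 89195 values the FPKM was, within 0.1%, what the count gives for 1 length per gene and the library's total. Annotation release and strand setting were not given in the sources used here. The authors' columns of KEGG and other annotations were not used.

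Counts were tested in R 4.3.3 with edgeR 4.0.16 (TMM, filterByExpr, quasi-likelihood test, Benjamini-Hochberg adjustment over 13311 genes). Also run were DESeq2 1.42.0 on the same genes, limma 3.58.1 on FPKM as log2 values with 1 or 0.1 added, other edgeR settings, scalings and filters, the replicate block, and leaving out each library. With 3 against 3, an exact two-sided permutation test cannot go below 0.1. Scripts were tested on simulated data with 200 of 13311 genes changed, 100 of them strongly and 100 more weakly. At an adjusted p under 0.05, edgeR found 96 and 78 of these and made 10 false calls. DESeq2 found 99 and 90 and made 48 false calls. Totals of 35430881 to 38341643 counts set the counting precision.

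Members and gene lists were chosen with earlier results of these data known. Named genes were all members, ligands and IGFBP proteases with their inhibitors, and, in the other lists, genes whose groups did not overlap, that edgeR or DESeq2 called, or with the highest mean FPKM of the list. For IGFBP3 the 5 most alike genes were named.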

Additional observations from a re-analysis of the deposited data

How the results depend on the processing

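With 3 libraries per group and 35430881 or more counts each, depth limited only genes such as IGFBP1, IGF2 and IGFALS, and the spread between libraries limited the rest. IGFBP3 had a positive log2 fold change under every alternative run. Its groups were also separate on FPKM and on counts scaled by library size only, while leaving out a library could not bring overlap back. Its adjusted p passed 0.05 with DESeq2 and with limma on log2(FPKM + 1), at 0.0477. With the other settings on all libraries it did not, at 0.0542 to 0.0684. With a library left out, the adjusted p of IGFBP3 from edgeR was 0.0266 without rhChem157S library 1 and 0.0320 without rhChem157S library 3. It was 0.181 to 0.359 without any other library, and 0.359 was the highest over all alternatives. From DESeq2 it was 5.27e-09 to 1.01e-04 with a library left out.

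The count of called genes was 4 with edgeR, 1407 with DESeq2, 179 with limma on log2(FPKM + 1), 23 on log2(FPKM + 0.1), 15 with legacy=FALSE, 17 without the filter and 1 with the replicate block. With a library left out it ran from 0 to 2704. With edgeR it was 0 without any 1 of the Control libraries or rhChem157S library 2 (1666 to 2190 genes at an unadjusted p under 0.05), 844 without rhChem157S library 1 and 415 without library 3. Of the 9 tested members, edgeR called 0, DESeq2 1 and limma on log2(FPKM + 1) 1, and with a library left out the count ran from 0 to 2. Members whose groups did not overlap numbered 1, and 1 to 3 with a library left out: IGFBP6 and IGF2R were added without Control library 3, IGFBP6 and IGFBP7 without rhChem157S library 1, and INSR without rhChem157S library 3. Groups separate more easily with fewer libraries. The share of all tested genes that did so with a library left out was not computed, so these counts cannot be read against it.

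The deviations of same-numbered libraries from their group means correlated at 0.241, 0.00147 and 0.247 for numbers 1 to 3. Such deviations balance out within a group, so the correlations of the different pairings are bound to each other. Control libraries 1 and 3 correlated best with the treated library of the same number. Control library 1 with rhChem157S library 3 gave -0.190, and Control library 3 with rhChem157S library 1 gave -0.306. Control library 2 correlated best with rhChem157S library 1, at 0.106. The numbers were not taken to pair the samples in the main test, but a pairing is not excluded. With the replicate block 0 members were called, with an adjusted p of 0.0581 for IGFBP3 and 0.0524 for IGFBP6.

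Of 856 alternative values for 39 named genes, 727 kept direction and side of the threshold, 82 crossed to an adjusted p under 0.05, 5 (all of CAVIN3) left it and 42 changed sign. With limma on log2(FPKM + 1), limma on log2(FPKM + 0.1) and library size only, in this order, the log2 fold change was -0.060, -0.063 and -0.091 for IGFBP2, -0.016, -0.016 and -0.039 for IGFBP4, -0.057, -0.059 and -0.040 for IGFBP7, -0.25, -0.27 and -0.093 for STC1 and -0.047, -0.048 and -0.049 for AKT1, and STC1 had -0.15 with the replicate block. With a library left out it ran from -0.15 to 0.35 for IGFBP2, -0.049 to 0.35 for IGFBP4, -0.11 to 0.92 for IGFBP5, -0.043 to 0.29 for IGFBP7, -0.19 to 0.014 for IGF1R, -0.12 to 0.030 for IGF2R, -0.028 to 0.36 for HTRA1, -0.63 to 0.42 for STC1 and -0.14 to 0.95 for STC2. Values from library size only differ from the others by the scaling itself, and otherwise the cause was not tested.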

Other observations

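IGFBP6 had a pattern over the libraries that other genes shared. By the same measure as for IGFBP3, a search made after the values of IGFBP6 had been seen, the 5 most alike genes were IFIT3, at a root mean square difference of 0.192, TNC at 0.220, DCBLD2 at 0.227, SAMD9 at 0.239 and SERPINE2 at 0.244. IFIT3 and SAMD9 are induced by interferon, TNC encodes the matrix protein tenascin-C and SERPINE2 a secreted protease inhibitor. In IFIT3 the FPKM was 21.9, 29.1 and 59.4 in Control libraries and 30.2, 46.5 and 87.6 in rhChem157S libraries. As in IGFBP6, the library numbered 3 was the highest of each group and Control library 3 lay above rhChem157S library 1. The adjusted p from edgeR was 0.396 for IFIT3, 0.199 for TNC, 0.240 for DCBLD2, 0.160 for SAMD9 and 0.158 for SERPINE2. DESeq2 called SERPINE2 (adjusted p = 0.0215) and SAMD9 (adjusted p = 0.0384), and not IFIT3, TNC or DCBLD2 (adjusted p = 0.524, 0.0685 and 0.287).

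Among the relatives of the IGFBPs that did not pass the filter on low counts, ESM1, which encodes the proteoglycan endocan, had 0, 0 and 7 counts in Control libraries and 5, 150 and 366 in rhChem157S libraries. IGFBPL1 had 21, 5 and 5 counts and then 1 in each rhChem157S library. The FPKM of ESM1 was 1.97 and 4.67 in rhChem157S libraries 2 and 3, and its groups overlapped.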
